A study of Mus musculus with 2 samples.

Results

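The genes described here encode the proteasome. They are all symbols of the 2 deposited count tables that begin with Psma, Psmb, Psmc, Psmd, Psme, Psmf or Psmg followed by a digit, 50 of 23238 symbols in all, and 48 of them had 50 or more reads. The symbol rule used no measured value. All 48 reached that floor in both libraries, the fewest being 67 reads. Just inside the floor lay Psmg1 with 196 and 67 reads, Psmg2 with 189 and 107 and Psmc3ip with 185 and 206 (control first, as throughout). Just outside lay Psma8 with 39 and 20 and Psmb11 with 15 and 3.

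The proteasome is the protease that degrades ubiquitin-tagged proteins in the cytosol and nucleus. Its barrel, the 20S core, is built of alpha subunits (Psma genes) at the outer rings and beta subunits (Psmb genes) at the inner rings, and the cap, the 19S regulator, of ATPases (Psmc genes) and non-ATPase subunits (Psmd genes). The catalytic beta subunits Psmb5, Psmb6 and Psmb7 can be replaced in new particles by the immunosubunits Psmb8, Psmb9 and Psmb10, which interferon gamma is known to induce. Such immunoproteasomes favour peptides that fit MHC class I molecules, and dendritic cells are known to carry them at rest. PA28, an activator made of Psme1 and Psme2, is a further interferon-inducible part.

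RNA was read from dendritic cells, which present antigen to T cells, derived in culture from mouse bone marrow. Marrow came from female C57BL/6 mice 7 weeks old. Both cultures had 20 ng/ml GM-CSF, supplied again on day 3, and the immature cells that floated or held on loosely were taken on day 6. One library came from the culture labelled control and the other from the culture labelled UNE-C1, a domain of the cysteinyl-tRNA synthetase known as a ligand of Toll-like receptors, for which 100 nM and 24 h are given. The treatment text that gives this dose and time stands on both samples, the control included, and only their titles tell them apart. That the control culture had no UNE-C1 is therefore read from its title, and every UNE-C1 over control value rests on that reading. Whether marrow of several animals was pooled is not stated. Each group is 1 library, so no replicate error and no test can be given, and the 95% intervals cover counting error only.

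The libraries held 14857198 and 15975821 reads. The 14 dendritic cell markers all passed the floor and summed to 15323 and 14060 CPM, with 11 lower, 3 higher and a median log2 fold change of -0.19. Cd74 (48646 and 41150 reads) and H2-Ab1 (45713 and 36789) were abundant in both libraries. Lower were Itgax (12693 and 3493 reads), Flt3 (143 and 62) and Clec9a (175 and 34), while Xcr1 (54 and 189) was higher. Of 13 neutrophil markers, 12 were in the tables and all 12 were lower in the UNE-C1 library, with a summed level of 8327 CPM (read counts scaled to library size) in the control against 3214 CPM. The 8 markers of mast cells, basophils and eosinophils summed to 1216 and 798 CPM, with the 6 past the floor all lower. The 10 monocyte and macrophage markers summed to 7541 and 5668 CPM, with 5 of the 9 past the floor higher and 4 lower. Some of these differences were large in each direction. Fcgr1 (553 and 5629 reads), Ly6c2 (5545 and 15692) and Adgre1 (1945 and 4940) were at least 2-fold higher. Mrc1 (1291 and 80 reads), Ccr2 (4121 and 655) and Lyz2 (58793 and 16408) were at least 2-fold lower. The markers of B cells, T and natural killer cells and stromal cells did not pass the floor, and Pax5 and Cd3e were at 0 in both. These markers differ between the same libraries as every difference given here, and their part in it was not tested. In bulk RNA, fewer cells of a type and less RNA per cell cannot be told apart.

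Proteasome transcripts took a larger share of the UNE-C1 library. All 50 genes together had 94979 reads in the control, or 0.639% of the library, and 127609 reads in the UNE-C1 library, or 0.799%. Most of this difference lay in Psmb8, Psmb9, Psmb10, Psme1, Psme2 and Psme2b. The other 44 genes took 0.524% of the control library and 0.563% of the UNE-C1 library. On the log2((CPM + 1)/(CPM + 1)) scale, UNE-C1 over control, the 48 genes past the floor had a median of 0.43, against -0.00 for the 10469 genes of the whole table past the same floor. Of the 48, 43 were above 0 with TMM (trimmed mean of M values) scaling, where 49.6% of all genes were. With total counts in place of TMM it was 31, with 17 below 0, but the median of all genes was then -0.33. The median of the 48 stood 0.44 above that of all genes with TMM and 0.42 with total counts. With TMM 14 were at least 1.5-fold higher (18.2% of all genes), and 1 was at least 1.5-fold lower (19.3% of all genes). At least 2-fold higher were 6 (9.31% of all genes) and 1 was at least 2-fold lower (9.42% of all genes). The 6 were Psmb8, Psmb9, Psmb10, Psme1, Psme2 and Psme2b, and the 1 was Psmg1. Most members past the floor were thus shifted by less than 2-fold, with 6 apart above them and Psmg1 apart below. No member past the floor lay between a log2 fold change of 0.91 (Psme4) and 1.28 (Psme2), or between -0.53 (Psmg2) and -1.15 (Psmg1). Of the 6, Psme2b can share reads with Psme2.

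**Figure D1:**
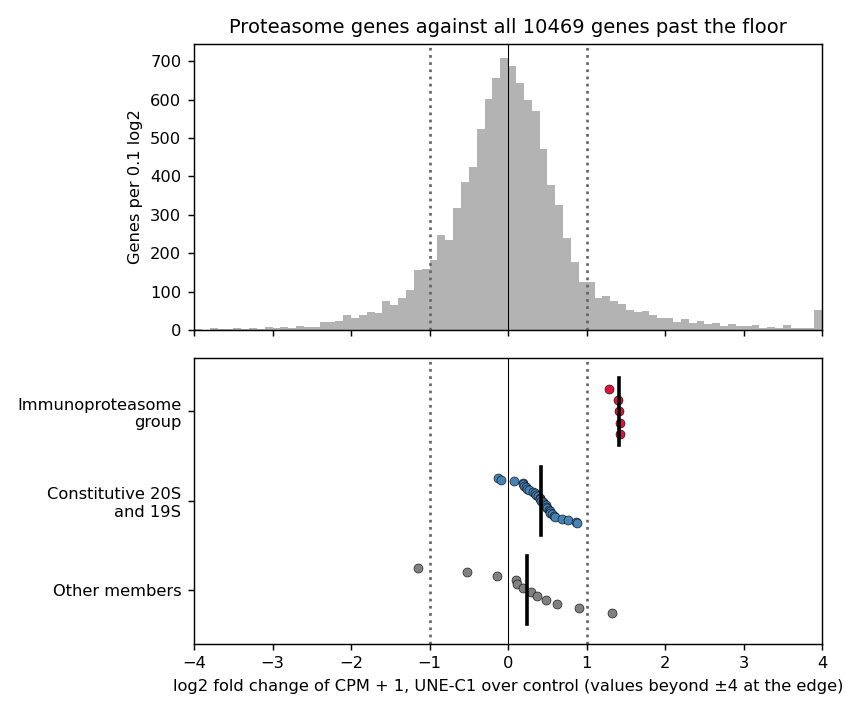
The upper panel is a histogram of log2 fold changes (CPM + 1, UNE-C1 over control) of all 10469 genes past the floor, and the lower panel shows each proteasome gene as a point with the group median as a black bar. Dotted lines mark 2-fold. The 5 genes of the immunoproteasome group lie between 1.28 and 1.43, and the 31 constitutive subunits between -0.13 and 0.88.

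The immunosubunits were higher in the UNE-C1 library by nearly the same factor. Psmb8, which replaces the chymotrypsin-like subunit, had 3907 reads (233 CPM) in the control and 8873 reads (626 CPM) in the UNE-C1 library, 2.68-fold higher (counting interval 2.58 to 2.78). Psmb9, which replaces the caspase-like subunit, had 1802 reads (108 CPM) and 4141 reads (292 CPM), 2.71-fold higher (2.56 to 2.87). Psmb10, which replaces the trypsin-like subunit, had 1713 reads (102 CPM) and 3862 reads (272 CPM), 2.66-fold higher (2.51 to 2.82). The 3 intervals overlap, so the 3 ratios were not distinguishable by counting error. Each was already present in the control library, at 102 CPM or more. Psmb8 and Psmb9 lie close together in the MHC region of chromosome 17, at chr17:34197721-34201454 on the plus strand and chr17:34181987-34187764 on the minus strand (GENCODE M21, GRCm38), while Psmb10 lies apart at chr8:105935735-105938444 on the minus strand.

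The constitutive catalytic subunits, which the immunosubunits replace, differed less. Psmb5, the chymotrypsin-like subunit, had 2590 and 3179 reads (155 and 224 CPM), 1.45-fold higher (1.37 to 1.53). Psmb6, the caspase-like subunit, had 3533 and 4544 reads (211 and 320 CPM), 1.52-fold higher (1.45 to 1.59). Psmb7, the trypsin-like subunit, had 1533 and 1626 reads (91.6 and 115 CPM), 1.25-fold higher (1.17 to 1.34). None of the 3 was lower in the UNE-C1 library with this scaling. With total counts Psmb7 was near the control level, at a log2 fold change of -0.02, while Psmb5 (0.19) and Psmb6 (0.26) stayed above it.

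Within a library the share of an immunosubunit in the reads of its pair does not depend on library scaling. The reads start near the 3' end and were not divided by length, and priming can differ between genes, so the shift between libraries is the quantity of interest rather than the share itself. Psmb8 took 60.1% of the reads of Psmb8 and Psmb5 in the control (exact binomial interval 58.9 to 61.3) and 73.6% in the UNE-C1 library (72.8 to 74.4). Psmb9 took 33.8% of the reads of Psmb9 and Psmb6 in the control (32.5 to 35.1) and 47.7% in the UNE-C1 library (46.6 to 48.7). Psmb10 took 52.8% of the reads of Psmb10 and Psmb7 in the control (51.0 to 54.5) and 70.4% in the UNE-C1 library (69.1 to 71.6). At each catalytic position the share was thus larger in the UNE-C1 library and the intervals did not overlap. The ratio of immunosubunit to counterpart reads was 1.85 times that of the control for Psmb8 (1.73 to 1.97), 1.79 times for Psmb9 (1.66 to 1.92) and 2.13 times for Psmb10 (1.94 to 2.33). Set against the summed reads of the 7 alpha ring genes, 20011 and 24756, the corresponding values were 1.84, 1.86 and 1.82. The larger value of Psmb10 in its pair thus went with the smaller difference of Psmb7, a gene that overlaps Nek6 on the opposite strand (2348 and 1276 reads on Nek6).

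**Figure D2:**
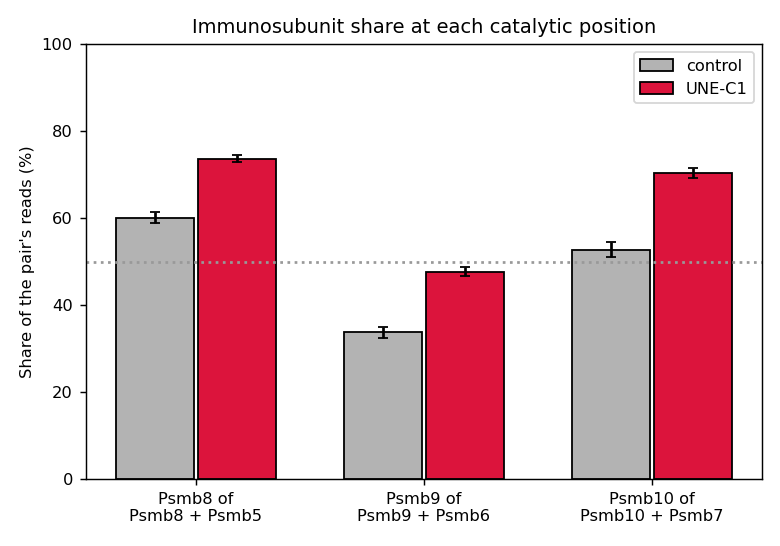
Bars give the immunosubunit's percentage of the reads of itself and its constitutive counterpart, in the control (grey) and the UNE-C1 library (red), with exact 95% binomial intervals for counting error and a dotted line at 50%. All 3 shares are larger in the UNE-C1 library, 73.6% against 60.1% for Psmb8, 47.7% against 33.8% for Psmb9 and 70.4% against 52.8% for Psmb10.

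The activators that dock on the barrel in place of the 19S cap fell into separate classes. Psme1, the alpha chain of PA28 (chr14:55578123-55581529, plus strand), had 3028 and 6909 reads (181 and 487 CPM), 2.69-fold higher (2.58 to 2.81). Psme2, its beta chain partner (chr14:55587441-55591113, minus strand), had 1978 and 4091 reads (118 and 288 CPM), 2.44-fold higher (2.31 to 2.58). Both chains were thus higher, by factors in or just below the range of the immunosubunits, and the interval of Psme2 ended just under that of Psme1. Psme3, the nuclear activator PA28 gamma, had 767 and 588 reads (45.8 and 41.5 CPM), a ratio of 0.904 whose interval of 0.811 to 1.01 holds 1. Psme4, which encodes the single-chain activator PA200, had 1042 and 1669 reads (62.3 and 118 CPM), 1.89-fold higher (1.75 to 2.04), the member closest below the 2-fold line. The gene family named Psme thus held both members past 2-fold and 1 member that was not higher.

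Psme2b needs a separate account. It lies on another chromosome, at chr11:48945354-48946190 on the minus strand, and its transcript of 837 bases is identical to the Psme2 transcript of 962 bases at 789 of 794 aligned bases (99.4%). Reads can therefore have been placed on either gene. It had 4642 and 9832 reads (277 and 693 CPM), more than Psme2 in both libraries, and was 2.50-fold higher (2.41 to 2.59). Summed, Psme2 and Psme2b had 6620 and 13923 reads, 2.48-fold higher (2.41 to 2.56), a sum made after the values were seen. The whole of Psme2b also lies within the annotated span of Gm12185 on the same strand, which had 15 and 94 reads. How many of the reads came from Psme2b itself was not tested.

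**Figure D3:**
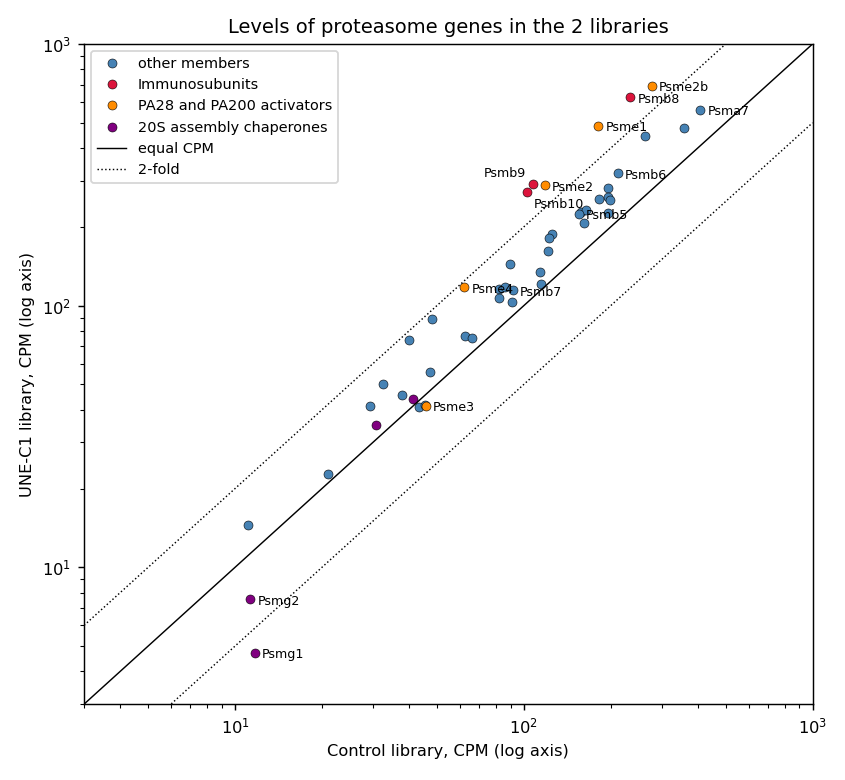
Each point is a proteasome gene past the floor, with its level in the control library on the horizontal axis and in the UNE-C1 library on the vertical axis, both in CPM on log axes. The solid line marks equal levels and the dotted lines 2-fold. Immunosubunits (red), Psme1, Psme2 and Psme2b (orange) lie above the upper dotted line, Psmg1 (purple) lies below the lower one, and the other genes lie between.

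Promoter sequences were examined because the immunoproteasome genes were higher together. RefSeq promoters (GRCm38.p6, 250 bases before to 50 after the start) were found for 42 of the 50 genes, not for Psma8, Psmb1, Psmb2, Psmb7, Psmc3, Psmd3, Psmd7 and Psmg2. The interferon-stimulated response element was searched as GAAA, any 2 bases and GAAA, and the gamma-activated site as TTCNNNGAA, each on both strands. The 8 matches in proteasome promoters are shown 5' to 3' on the strand of the gene, with the match in capitals, because they show which of the genes past 2-fold hold such letters and which do not.
Psmb8, gamma-activated site: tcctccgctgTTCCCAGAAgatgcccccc
Psme1, response element: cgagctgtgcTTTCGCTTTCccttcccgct
Psmb3, response element: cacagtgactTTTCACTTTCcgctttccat
Psmd4, response element: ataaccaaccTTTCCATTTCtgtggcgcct
Psmd9, response element: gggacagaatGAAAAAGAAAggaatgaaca
Psmg4, response element: gcgcgcatctGAAAGTGAAAgagcgttccg
Psmd2, gamma-activated site: gcgcgtggccTTCTGGGAAaaggggcggt
Psmg1, gamma-activated site: actcatgTTCTCTGAAtccgcttgca

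The match of Psmb8 begins 97 bases before the RefSeq start, and the stretch printed, chr17:34198088-34198116, lies in an exon of a protein-coding Psmb8 transcript that starts further upstream in GENCODE M21. That of Psme1 begins at base 10 after the start and lies in a Psme1 exon (chr14:55578493-55578522). In the other 3 genes of the immunoproteasome group, Psmb9, Psmb10 and Psme2, and in Psme2b, neither run of letters was in this window. For Psmb9 the window chr17:34187281-34187580 lies wholly within the GENCODE M21 span of the gene, which starts further upstream at base 34187764. The lack of a match there says nothing about the bases before that start. Among all 27025 genes with a promoter in the table, 3.99% held the response element and 9.55% the gamma-activated site. Among the 42 proteasome genes it was 5 and 3 genes, and most of these were not past 2-fold: Psmb3, Psmd4, Psmd9 and Psmg4 with the response element had log2 fold changes of 0.19, 0.52, 0.11 and 0.10. Psmd2 with the gamma-activated site stood at 0.35, and Psmg1, the one gene at least 2-fold lower, also held it. The antioxidant response element, searched as TGACNNNGC on both strands, was in 6 of the 42 promoters (14.0% of all genes), those of Psmb5, Psmb6, Psmc6, Psmd9, Psmd12 and Psme4. The CCAAT box was in 15 (41.1% of all genes) and the kappaB motif in 1 (5.14% of all genes), that of Psmd12.

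The constitutive particle was higher by less than 2-fold with the main scaling. Of its 31 subunits, 29 were above 0 (49.6% of all genes), with a median log2 fold change of 0.41. At least 1.5-fold higher were 6, a share near the 18.2% of all genes, and none reached 2-fold, where 9.31% of all genes were higher and 9.42% lower. This direction depends on the scaling. With total counts in place of TMM 21 of the 31 were above 0 and 10 below, and their median was 0.072. The median of all genes moved from -0.00 to -0.33 under that scaling. Relative to the median gene the constitutive subunits stood at 0.42 with TMM and 0.40 with total counts, and 29 of 31 were above the median gene under each of the 4 scalings tried. The immunoproteasome group (Psmb8, Psmb9, Psmb10, Psme1 and Psme2) had a median of 1.42 with TMM and 1.08 with total counts, and stood 1.005 (log2) above the constitutive subunits with TMM and 1.003 with total counts.

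**Figure D4:**
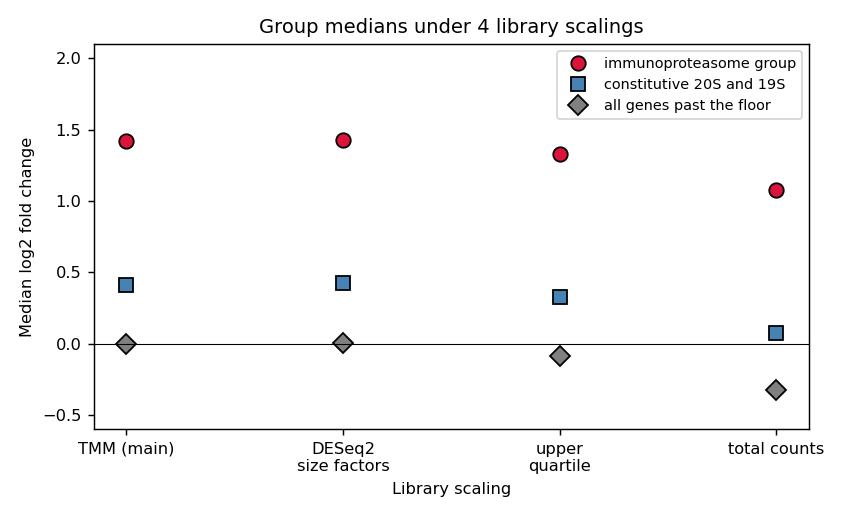
Median log2 fold change (UNE-C1 over control) of the immunoproteasome group (5 genes), the constitutive subunits (31 genes) and all 10469 genes past the floor under 4 library scalings. All 3 medians move down together with total counts, to 1.08, 0.072 and -0.33, and the distances between them stay nearly the same.

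In the alpha ring, which gates entry to the barrel, all 7 genes were above 0 with TMM and with total counts. Psma5 had the largest difference, with 671 and 1049 reads (40.1 and 74.0 CPM), 1.84-fold higher (1.67 to 2.03). Psma2 followed with 4396 and 6337 reads, 1.70-fold higher (1.64 to 1.77). Psma1 had the smallest, with 1368 and 1511 reads (81.8 and 107 CPM), 1.30-fold higher (1.21 to 1.40). The most abundant was Psma7, with 6822 and 7946 reads, and Psma3, Psma4 and Psma6 lay between 1.33-fold (Psma4) and 1.48-fold (Psma6). The alpha ring thus spread over a range in which the interval of Psma5 did not reach that of Psma1.

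The non-catalytic beta subunits, which build the inner rings without cleaving peptides themselves, had smaller values. Psmb4 was highest with 3054 and 3632 reads (183 and 256 CPM), 1.40-fold higher (1.34 to 1.47), and Psmb3 lowest with 1103 and 1065 reads (65.9 and 75.1 CPM), 1.14-fold higher (1.05 to 1.24). Psmb1 had 3324 and 3579 reads and Psmb2 632 and 648. All 4 were above 0 with TMM and 2 of 4 with total counts.

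Of the 6 ATPases, which unfold substrates and push them into the barrel, all were above 0 with TMM. With upper quartile scaling 5 were above 0, and with total counts 4. Psmc6 was highest with 802 and 1260 reads (47.9 and 88.8 CPM), 1.85-fold higher (1.69 to 2.03). Psmc3 was lowest with 1913 and 1709 reads (114 and 120 CPM), a ratio of 1.05 whose interval of 0.987 to 1.13 holds 1. Between them lay Psmc1 (2089 and 2665 reads), Psmc4 (1376 and 1635), Psmc2 (2037 and 2304) and Psmc5 (789 in each library). These subunits form 1 ring in equal number, yet the ratios of Psmc6 and Psmc3 had intervals that did not overlap.

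The non-ATPase subunits of the cap base differed among themselves. Psmd4, a ubiquitin receptor, had 3286 and 4007 reads (196 and 282 CPM), 1.44-fold higher (1.37 to 1.51). Psmd1 had 3283 and 3199 reads (196 and 226 CPM), 1.15-fold higher (1.09 to 1.21), and the intervals of these genes did not overlap. Psmd2, which with Psmd1 forms the scaffold of the base, had 2703 and 2933 reads. With total counts Psmd1 turned below 0 (log2 fold change -0.14) and Psmd4 stayed above it (0.18), while Psmd2 was near it (0.01).

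The lid, which removes ubiquitin chains before a substrate enters, held the 2 constitutive subunits that were below 0 with TMM. Psmd6 had 763 and 591 reads (45.6 and 41.7 CPM), a ratio of 0.914 (0.819 to 1.02), and Psmd12 had 728 and 580 reads (43.5 and 40.9 CPM), a ratio of 0.940 (0.841 to 1.05). Both intervals hold 1. Psmd11 was highest in the lid with 1499 and 2055 reads (89.6 and 145 CPM), 1.62-fold higher (1.51 to 1.73). Psmd14, the deubiquitinase itself, had 1517 and 1464 reads, 1.14-fold higher (1.06 to 1.22). Psmd13 (2630 and 3225 reads), Psmd7 (2753 and 3289), Psmd8 (5996 and 6767) and Psmd3 (1902 and 1909) lay between 1.18-fold (Psmd3) and 1.45-fold (Psmd13).

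**Figure D5:**
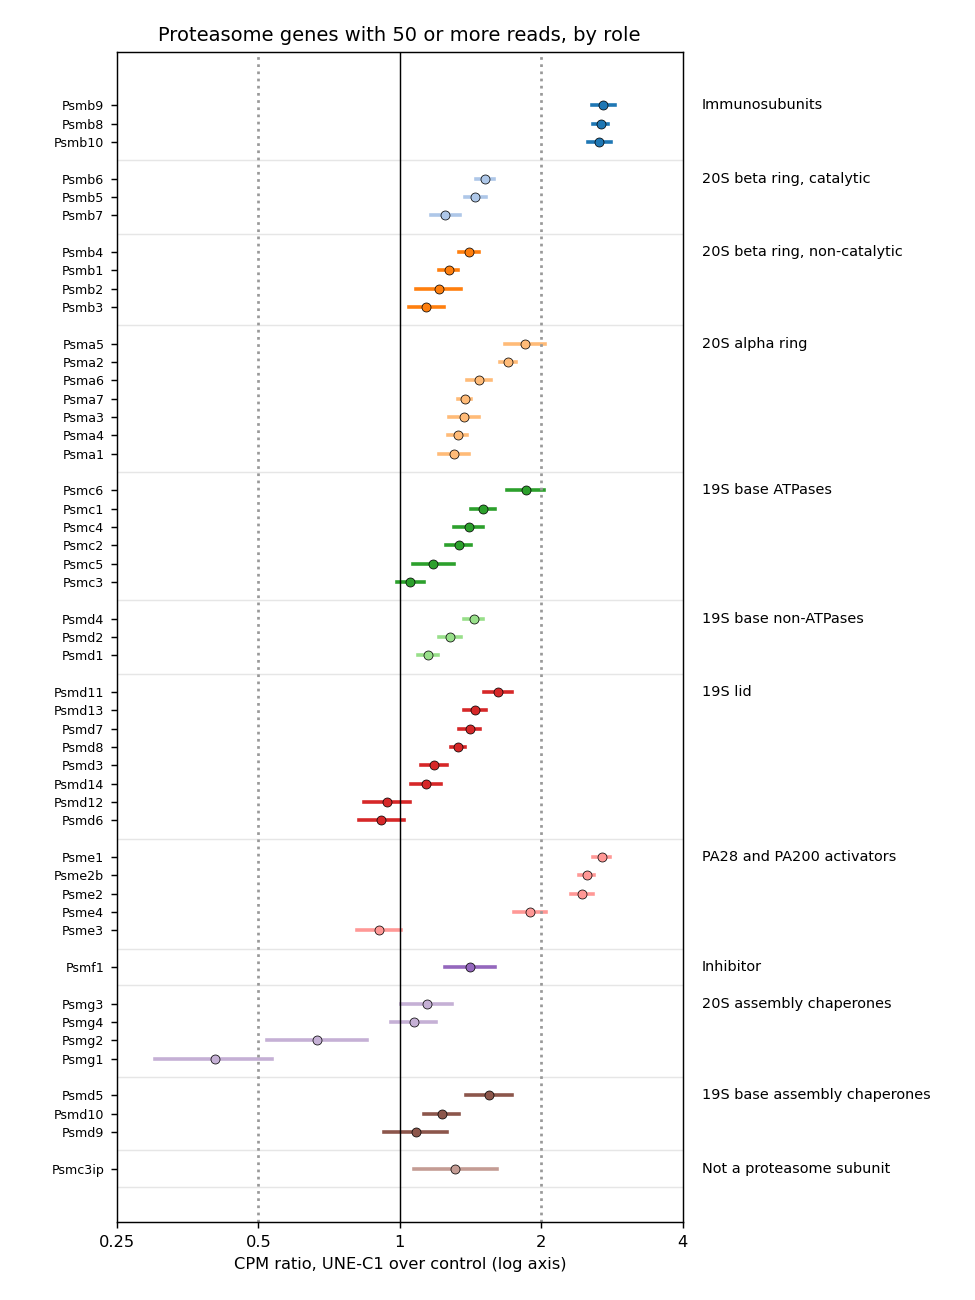
Points give the CPM ratio of UNE-C1 over control of each proteasome gene past the floor on a log axis, grouped by role, and lines give the 95% counting interval. Dotted lines mark 2-fold. Of 48 genes, 40 have an interval above 1, 6 an interval that holds 1 and 2 (Psmg1 and Psmg2) an interval below 1.

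Of the 4 chaperones that assemble the barrel, 2 were lower in the UNE-C1 library. Psmg1 and Psmg2 form a pair that builds the alpha ring. Psmg1 had 196 and 67 reads (11.7 and 4.72 CPM), 2.48-fold lower (1.87 to 3.32). Psmg2 had 189 and 107 reads (11.3 and 7.54 CPM), a ratio of 0.668 (0.522 to 0.851). The other pair, Psmg3 and Psmg4, was not lower with TMM: Psmg3 had 513 and 496 reads (30.7 and 35.0 CPM), 1.14-fold higher (1.01 to 1.29), and Psmg4 had 689 and 626 reads (41.2 and 44.1 CPM), a ratio of 1.07 (0.960 to 1.20). With total counts all 4 were below 0. The difference of Psmg1 rests on few reads: it was no longer counted as 2-fold with a pseudocount of 5 CPM, and with a floor of 200 reads it was not counted at all. Pomp, the maturation protein that completes the barrel, is no Psm gene and had 617 and 908 CPM, 1.47-fold higher (1.43 to 1.51).

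The chaperones of the cap base were above 0 with TMM. Psmd5 had 543 and 714 reads (32.5 and 50.3 CPM), 1.55-fold higher (1.39 to 1.74), Psmd9 had 352 and 323 reads, a ratio of 1.08 (0.928 to 1.26), and Psmd10, which encodes gankyrin, had 1043 and 1086 reads. With total counts Psmd9 was below 0 (log2 fold change -0.22) and Psmd10 was near it (-0.05). Psmf1, which encodes the proteasome inhibitor PI31, had 490 and 586 reads (29.3 and 41.3 CPM), 1.41-fold higher (1.25 to 1.59). Psmc3ip, caught by the symbol rule, encodes a meiotic recombination factor and no proteasome subunit, and had 185 and 206 reads (11.1 and 14.5 CPM). The tissue-restricted subunits were nearly absent, with Psma8 (testis) at 2.33 and 1.41 CPM and Psmb11 (thymus) at 0.896 and 0.211 CPM, so that no fold is given.

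Genes that work with the proteasome were described from lists chosen for their role. Among 17 other parts, assembly and associated factors none was 2-fold higher (9.31% of all genes) or 2-fold lower (9.42% of all genes). Their median log2 fold change was 0.26. The highest were AI314180, the mouse symbol for the Ecm29 adaptor (0.87), Fbxo7 (0.86) and Zfand2a (0.85). At the low end stood Ubqln2, a shuttle for ubiquitinated proteins (-0.94), and the proteasome-bound deubiquitinases Usp14 (-0.56) and Uchl5 (-0.52). Usp14 had 91.1 and 61.5 CPM and Uchl5 23.5 and 16.1 CPM, so these 2 enzymes stood below the control level while most subunits stood above it. Under upper quartile scaling (10.8% of all genes) and under total counts (16.2% of all genes) Ubqln2 passed the 2-fold line downwards.

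Of 12 transcription factors and processing enzymes known to act on proteasome genes, 4 reached 2-fold upwards (9.31% of all genes). None reached it downwards (9.42% of all genes), and the median was 0.33. Irf1, which binds the promoters of immunosubunit genes, had 147 and 397 CPM, 2.70-fold higher (2.57 to 2.83). Nlrc5, the class I transactivator, had 20.9 and 57.5 CPM, 2.76-fold higher (2.43 to 3.14), and Irf8 had a log2 fold change of 1.32. The factors known for constitutive proteasome genes differed less: Nfe2l1, which drives subunit synthesis when the proteasome is inhibited, had 78.8 and 106 CPM, 1.34-fold higher (1.25 to 1.45). Nfe2l2 was lowest with 680 and 392 CPM, at a log2 fold change of -0.79, followed by Ngly1 (-0.57) and Ddi2 (-0.14), which process the Nfe2l1 protein. With total counts Irf8 was no longer 2-fold higher (6.28% of all genes) and Nfe2l2 was 2-fold lower (16.2% of all genes).

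Of 13 ubiquitin, E1 enzyme and p97 complex genes past the floor, 2 reached 2-fold upwards with TMM (9.31% of all genes). None reached it downwards with that scaling (9.42% of all genes), and the median was 0.19. Uba7, the E1 enzyme for the ubiquitin-like modifier ISG15, had a log2 fold change of 2.11. Uba1, the main E1 enzyme of ubiquitin, stood at 0.66. The lowest were Rps27a, which encodes ubiquitin fused to a ribosomal protein (-0.97), and the E1 enzyme Uba6 (-0.69). With total counts Rps27a and Uba6 were 2-fold lower (16.2% of all genes), and with upper quartile scaling Rps27a alone was (10.8% of all genes). Ubb had 2 and 3 reads and was under the floor. Of 11 peptidases that trim or destroy proteasome products none was 2-fold higher (9.31% of all genes) or 2-fold lower (9.42% of all genes). Their median was -0.08. Erap1, which trims peptides in the endoplasmic reticulum, was highest at 0.84, followed by Npepps (0.52) and Lap3 (0.35), and Thop1 (-0.53), Ide (-0.48) and Tpp2 (-0.41) were lowest.

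Some values are uncertain because reads can be shared between genes. In the last 300 bases of their transcripts, 11 of the 50 genes shared at least 10% of their stretches of 50 bases with a transcript of another gene, and for 2 of them, Psme2 and Psme2b, that other gene is in the tables. The others were Psma3, Psma4, Psma5, Psmb3, Psmb5, Psmd1, Psmd2, Psmd11 and Psme1. Psmd1 shared 72.5% with Gm21972, and Psmb5, the counterpart of Psmb8, shared 51.4% with the pseudogene Gm3375. What such sharing does to the pair of Psmb8 and Psmb5 was not tested. The end of Psme1 overlaps that of Emc9 on the opposite strand by 14 bases, and since the strand setting is not given, reads there cannot be told apart. Emc9 had 1059 and 1993 reads. The longer overlaps that follow are of whole annotated gene spans, introns included. Whether reads fell in the shared bases is not known. Psmb7, the counterpart of Psmb10, overlaps Nek6 on the opposite strand by 6571 bases, and Nek6 had 2348 and 1276 reads, lower in the UNE-C1 library and more than Psmb7 in the control. What this overlap adds to the Psmb7 count, and so to the pair of Psmb10 and Psmb7, was not tested. Psmc3, the lowest of the ATPases, overlaps Slc39a13 on the opposite strand by 4579 bases, and Slc39a13 had 438 and 245 reads. Psmd1 overlaps Htr2b (11 and 56 reads) by 12945 bases and Psmd13 overlaps Sirt3 (38 and 111 reads) by 342, each on the opposite strand, and Psma2 overlaps AW209491 (77 and 76 reads) on its own strand. Psmc3ip overlaps Mlx on the opposite strand by 385 bases, and Mlx had 589 and 702 reads, more than Psmc3ip in both libraries. Psmb9 overlaps Tap1 on the opposite strand by 212 bases, and Tap1, the peptide transporter, had 1206 and 5687 reads. The bases shared by Psmb9 and Tap1 lie at the starts of both genes, and those shared by Psme1 and Emc9 at the ends. What this overlap adds to the Psmb9 count was not tested.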

How the data were processed

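Libraries were made with a QuantSeq 3' kit from 500 ng of total RNA, per the labels' protocols. The deposited files hold raw read counts per gene symbol, a unit read from the values. Bowtie2, edgeR and the mm10 build are named in the submitters' processing notes, without roles or versions. The counting tool, the annotation, and the handling of multiply mapped reads and of strand are not stated in the labels or files. No molecular identifiers are named, so intervals cover counting error only.

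Reads of repeated symbols were summed. CPM was scaled by TMM on the whole table (R 4.3.3, edgeR 4.0.16), with factors of 1.13 for the control and 0.888 for UNE-C1. Fold changes are log2((CPM + 1)/(CPM + 1)), and 2-fold calls use that scale. Ratios written "-fold" are plain CPM ratios with exact conditional binomial 95% intervals (scipy 1.17.1). Genes with 50 or more reads in either library were compared (2.99 CPM in the control, 3.52 CPM in UNE-C1). Alternatives were total counts, DESeq2 1.42.0 size factors, upper quartile scaling, pseudocounts of 0.1 and 5 CPM, no floor, a floor of 200 reads, and leaving out Psme2b. The code was tested on simulated data. Members and lists were chosen with earlier results of these data known. Every member past the floor is named. Of each context list the 3 highest and the 3 lowest are named, except for some results not reported here, and the cell type markers, Irf8, Nfe2l1, Pomp, Ubb and the genes that overlap a member were chosen after their values were seen. Positions come from GENCODE M21 (GRCm38, also called mm10) and promoters from RefSeq (GRCm38.p6).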

Additional observations from a re-analysis of the deposited data

How the results depend on the processing

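The count of genes at least 2-fold higher was 6 under every setting run except total counts, where it was 4 (Psme2 and Psme2b left it), and the omission of Psme2b, where it was 5. Of all genes 6.28% were 2-fold higher with total counts and 6.82% to 10.1% under the other settings. The count of 1 gene at least 2-fold lower, Psmg1, became 0 with a pseudocount of 5 CPM (4.62% of all genes) and with a floor of 200 reads (7.57% of all genes). With total counts it stayed at 1, where 16.2% of all genes were 2-fold lower. With total counts the medians were 0.091 for all 48 genes, 1.08 for the immunoproteasome group and 0.072 for the constitutive subunits. With upper quartile scaling those of the immunoproteasome group and the constitutive subunits were 1.33 and 0.33. The distance between these 2 groups was 0.99 to 1.01 under all settings. With the alpha ring sum as reference the value for Psmb10 was 1.82. Of the 48 single genes, 46 moved by more than their counting error with total counts and 22 with upper quartile scaling, and none did under the other settings; no gene past 2-fold changed direction. With 1 library per group no library could be left out and a replicate check could not be made. No paired analysis was possible because each group has 1 library. Depth limits Psmg1, Psmg2, Psmc3ip, Psma8 and Psmb11.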

Other observations

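The genes around the 5 immunoproteasome genes were read out as a description, chosen by position alone (within 30 kb in GENCODE M21 and present in the tables). Near Psmb8 and Psmb9 on chromosome 17, the peptide transporter subunit Tap1 was 5.56-fold higher (counting interval 5.23 to 5.92) and its partner Tap2 1.62-fold higher (1.51 to 1.74), while H2-DMb1, which edits class II peptides, had 4259 and 3381 reads, a ratio of 0.936 (0.895 to 0.980). The neighbours of Psme1 and Psme2 on chromosome 14 were Rnf31, the catalytic subunit of the linear ubiquitin ligase, with 150 and 528 reads (4.15-fold higher, 3.46 to 5.01), Emc9 with 1059 and 1993 reads (2.22-fold higher, 2.06 to 2.39), Irf9, a transcription factor of interferon responses, with 1680 and 2363 reads (1.66-fold higher, 1.56 to 1.77), Dcaf11 with 578 and 780 reads (1.59-fold higher, 1.43 to 1.78) and Pck2 with 159 and 74 reads (ratio 0.549, 0.411 to 0.728). Near Psmb10 on chromosome 8, by contrast, the genes past the floor were not higher: Slc12a4 had 395 and 177 reads (ratio 0.529, 0.440 to 0.633) and Pskh1 308 and 215 reads (ratio 0.823, 0.689 to 0.983). Fitm1, Rec8, Ctrl and Lcat were under the floor.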
